A study of Rattus norvegicus with 18 samples.

Results

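Peroxiredoxins, thioredoxin and their partner enzymes were followed in myelin-reactive rat T cells after loss of the transcription factor ETS1 or of the kinase GRK2. The 10 genes (Prdx1 to Prdx6, Txn1, Txnrd1, Sod1 and Gsto1) were taken by gene name out of 32882 genes in each of 3 expression tables, and every one of them had a row in every table. They were selected on these measurements, with the knockout (KO) differences and the tissue levels in view, so their values, and the counts of members called by fits across all genes, are given as a description and support nothing further.

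The cells were CD4+ T cells specific for myelin basic protein (TMBP cells), grown from a Lewis rat immunised with the guinea pig protein, a line that causes experimental autoimmune encephalomyelitis when transferred. Each group had 3 libraries, numbered 1 to 3, from cells taken 3 days after transfer, 18 libraries in all. In the Ets1 experiment, green fluorescent cells edited with Ets1 guides and blue fluorescent cells edited with a non-targeting guide were co-transferred and sorted from the parenchyma and from the spleen. In the Grk2 experiment, green Grk2-KO cells and blue non-targeting control cells were sorted from the spleen. In all groups the fluorescent label and the edited gene changed together, so their contributions cannot be told apart. The labels do not say which rat each library came from, so p-values refer to these libraries and not to rats. It is also not stated whether the parenchyma and spleen libraries of the Ets1 experiment came from the same transfers. The p-values and the SE of each log2 difference rest on a variance that the fits share across genes. In the parenchyma fit the spread of the gene itself had no weight, and in the 2 spleen fits it had little.

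Cells make hydrogen peroxide in mitochondria and at activated receptors, and peroxiredoxins reduce it with a reactive cysteine. The oxidised peroxiredoxin is reduced by thioredoxin (Txn1), which thioredoxin reductase (Txnrd1) recharges with NADPH; Txnip binds and inhibits thioredoxin. Many of these enzymes are induced by the transcription factor NRF2 (Nfe2l2), which Keap1 marks for degradation. Activated T cells produce peroxide as a signal and depend on these enzymes for division and survival.

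NRF2 acts through the antioxidant response element, and its core was searched, as TGACNNNGC on both strands, in windows running from 250 bases before to 50 bases after each annotated start (RefSeq, GRCr8). Of the 10 genes, 9 had a window, and Txnrd1 had windows at more than 1 start; Prdx6 had none. The core was found in 4 of the 10 member windows, at Prdx1, Prdx4, Prdx5 and Txnrd1, and in 12.1% of all 33469 windows. The ETS site CCGGAAGT was found in none of the 10 member windows and in 3.81% of all windows. The windows of Prdx5 and Txnrd1 are shown as examples that hold the core at genes with a KO difference below. The windows of Prdx2, Txn1 and Gsto1, genes that also differ below, held no core. That of Prdx1 is shown because it holds the core without being higher in KO cells. Each is read 5′ to 3′ along the gene, and capitals mark the core, which lies on the opposite strand in all 3 windows shown.
Prdx5 (GRCr8 chr1:213531978-213532277, minus strand): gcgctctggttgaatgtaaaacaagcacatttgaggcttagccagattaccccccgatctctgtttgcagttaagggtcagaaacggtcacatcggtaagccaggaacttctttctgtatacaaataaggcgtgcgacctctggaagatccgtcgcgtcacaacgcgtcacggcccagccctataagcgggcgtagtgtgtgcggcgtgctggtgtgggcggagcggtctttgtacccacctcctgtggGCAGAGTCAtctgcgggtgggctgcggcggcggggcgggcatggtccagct
Txnrd1 (GRCr8 chr7:22755855-22756154, minus strand): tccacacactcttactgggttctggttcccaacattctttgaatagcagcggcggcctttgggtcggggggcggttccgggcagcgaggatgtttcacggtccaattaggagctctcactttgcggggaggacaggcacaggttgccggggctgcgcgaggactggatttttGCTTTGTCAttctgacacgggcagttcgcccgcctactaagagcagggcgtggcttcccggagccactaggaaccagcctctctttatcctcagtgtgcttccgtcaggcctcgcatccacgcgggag
Prdx1 (GRCr8 chr5:135383656-135383955, plus strand): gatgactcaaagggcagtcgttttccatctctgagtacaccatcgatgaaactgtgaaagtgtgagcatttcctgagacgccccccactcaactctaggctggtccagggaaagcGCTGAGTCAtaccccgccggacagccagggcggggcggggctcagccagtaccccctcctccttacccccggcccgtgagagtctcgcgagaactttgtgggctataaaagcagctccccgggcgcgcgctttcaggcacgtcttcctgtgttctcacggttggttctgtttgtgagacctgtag
In Prdx1 the core overlapped the AP-1 site TGAGTCA. That site was found in 4.63% of all windows and in 2 of the 10 member windows, those of Prdx1 and Gsto1. The Prdx1 window holds another AP-1 site on the opposite strand, which is not marked here. These matches describe letters in the sequence and not binding.

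Levels are 3′ reads per gene divided by a size factor (normalised read counts). They are compared within a table, and not between genes. The libraries held 898092 to 2248258 reads on genes. The Ets1-KO spleen libraries were deeper (1909862 to 2248258) than their controls (898092 to 1213485), and Ets1-KO spleen library 3 stood apart: its counts differed from those of the other KO libraries by a chi-square per degree of freedom of 8.95 and 9.23, against 2.83 between the other two. Normalised Grk2 reads were 158 ± 14.1 (SD, n = 3) in the Grk2 control libraries and 68.3 ± 17.4 in the Grk2-KO libraries. Ets1 reads were not lower in the libraries labelled Ets1-KO (2551 ± 183 against 2400 ± 150 in parenchyma, 2000 ± 324 against 2077 ± 135 in spleen), so these 3′ reads, which need not cover the edited site, did not check those labels. The T cell genes were present throughout, 7 of 8 listed, with a summed level of 3112 to 4189. Il7r was listed at 0 in every library. Cd4 was low, at 6.45 to 21.9 in the spleen libraries. In parenchyma it measured 43.9, 35.7 and 49.1 in controls and 33.4, 28.3 and 22.7 in Ets1-KO libraries. Cd3d differed the other way there (1320 to 1452 in controls, 1454 to 1580 in KO libraries), and the other detected T cell genes overlapped.

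In parenchyma, the Ets1-KO libraries held more reads of several members of the thioredoxin system than their controls. Prdx5, the peroxiredoxin found in mitochondria, peroxisomes and cytosol, showed the widest difference, and Txn1, Prdx2 and Txnrd1 were also higher in every KO library than in any control. Together the 10 genes took 0.155 to 0.171% of reads in KO libraries and 0.111 to 0.128% in controls. KO exceeded control in every numbered pair for 6 members, was below it in every pair for Prdx1 and Prdx6, and was mixed for 2. The same count was not made over all genes, so it describes the members only.

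Prdx5 (chromosome 1, 222164461 to 222167447, minus strand, Rnor_6.0, the build of all gene positions that follow) measured 532, 531 and 394 normalised reads in parenchyma control libraries 1 to 3 and 778, 952 and 938 in the Ets1-KO libraries. Every KO library lay above every control. The means were 486 ± 79.3 and 890 ± 96.7 (SD, n = 3), a log2 difference of 0.88 ± 0.083 (SE). That SE comes from the variance shared across genes and does not measure the spread of Prdx5 itself. When a replicate number was left out, the difference ran from 0.695 to 1.045. In the spleen of the Ets1 experiment, Prdx5 measured 66.7, 64.5 and 61.1 in controls and 81.5, 77.5 and 68.7 in KO libraries. Again no KO library overlapped the controls, with a log2 difference of 0.24 ± 0.18. In the Grk2 experiment the groups overlapped, at 61.1 ± 6.92 in controls and 63.2 ± 8.06 in Grk2-KO libraries.

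Prdx2 (chromosome 19, 26084902 to 26090094, plus strand), a cytosolic peroxiredoxin, measured 381, 367 and 379 in parenchyma controls and 498, 505 and 484 in Ets1-KO libraries, a log2 difference of 0.40 ± 0.091. In spleen it measured 223, 238 and 190 in controls and 303, 305 and 267 in Ets1-KO libraries, a log2 difference of 0.43 ± 0.12. Prdx2 was thus higher in KO libraries of both tissues with no overlap, and the KO effect in parenchyma minus that in spleen was -0.03 ± 0.15 (SE) on the log2 scale. In Grk2 libraries it measured 240 ± 4.96 in controls and 235 ± 7.80 in KO libraries, with overlap.

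Txn1 (chromosome 5, 75049746 to 75057752, minus strand) encodes the thioredoxin that reduces oxidised peroxiredoxins. Its level was 55.1, 68.6 and 60.9 in parenchyma controls and 77.8, 99.1 and 86.1 in Ets1-KO libraries, a log2 difference of 0.50 ± 0.17. The 3 pairs gave nearly the same log2 ratio, from 0.49 to 0.52. In spleen the pairs of the Ets1 experiment ranged from -0.01 to 0.78 (51.7 to 124 in controls, 89.3 to 123 in KO libraries), the highest ratio coming from pair 3, where both the control (51.7) and the KO library (89.3) were the lowest of their group. The Grk2 experiment gave 345 ± 35.7 and 372 ± 34.0, a log2 difference of 0.11 ± 0.085.

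Txnrd1 (chromosome 7, 26946124 to 26984400, minus strand), the reductase that recharges thioredoxin, differed in opposite directions in the 2 tissues. In parenchyma it measured 242, 199 and 199 in controls and 264, 293 and 257 in Ets1-KO libraries, a log2 difference of 0.35 ± 0.11. In spleen it measured 141, 198 and 168 in controls and 105, 100.5 and 146 in the libraries labelled Ets1-KO, a log2 difference of -0.53 ± 0.15. All 3 numbered pairs were higher in KO in parenchyma and all 3 were lower in spleen, where KO library 3 overlapped the controls. The spleen difference was -0.31 without replicate 2, -0.58 without replicate 1 and -0.70 without replicate 3. After Grk2 loss Txnrd1 was lower too: it measured 222, 200 and 196 in controls and 171, 183 and 180 in KO libraries, so that the KO libraries lay below every control, with a log2 difference of -0.21 ± 0.10.

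**Figure D1:**
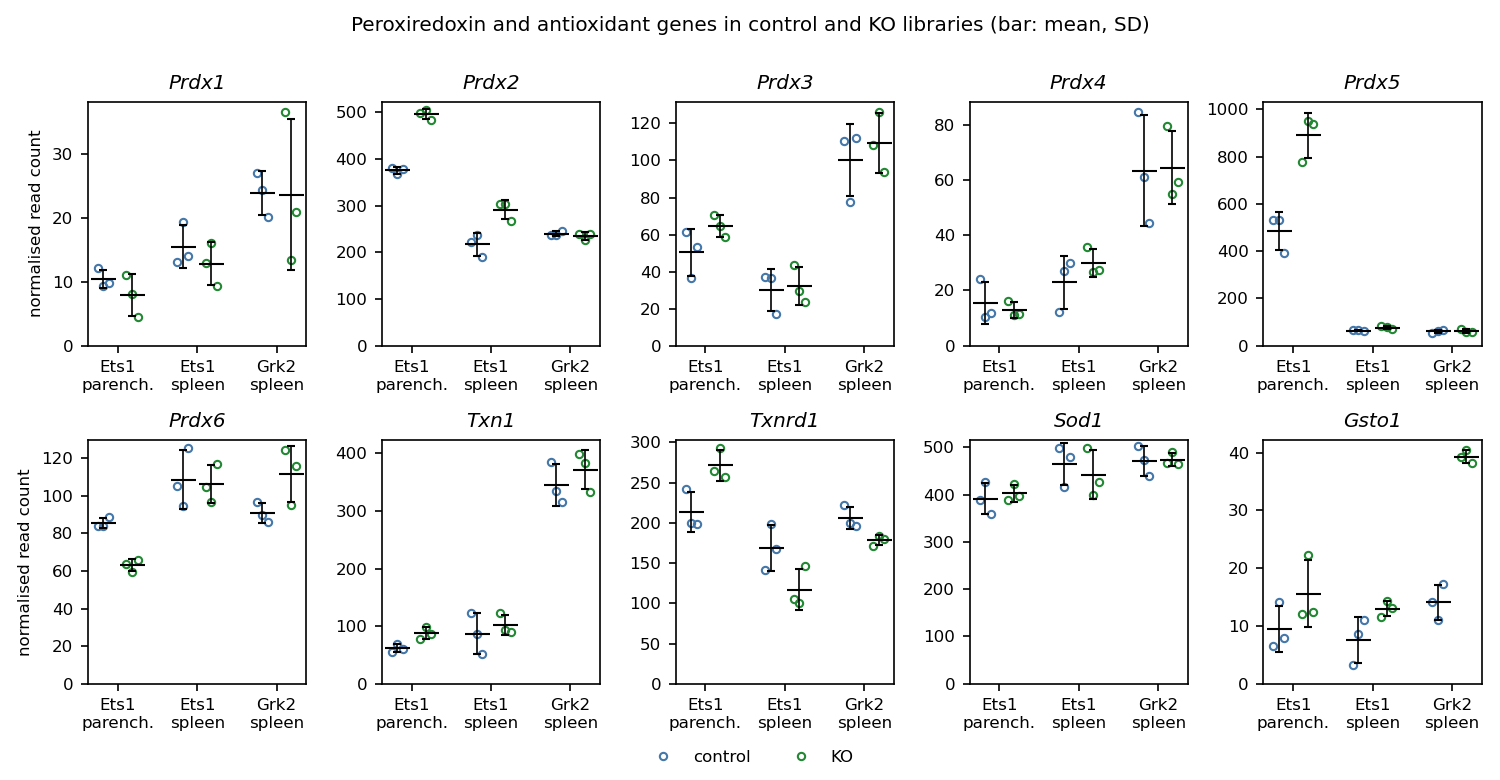
Normalised read counts of the 10 genes in every library, with 1 panel per gene; circles are libraries (blue control, green KO), the long bar is the mean and the whiskers the SD of 3 libraries. Prdx5 stands at 394 to 952 in parenchyma and below 82 in spleen, and Txnrd1 lies higher in KO libraries in parenchyma and lower in KO libraries in both spleen experiments.

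Of the other peroxiredoxins, Prdx6 was lower in KO libraries of the parenchyma, and Prdx1, Prdx3 and Prdx4 overlapped between the groups there. Prdx6 (chromosome 13, 79077032 to 79088127, minus strand), a peroxiredoxin that is reduced by glutathione in place of thioredoxin, measured 84.1, 83.7 and 88.5 in parenchyma controls and 63.7, 59.6 and 65.7 in Ets1-KO libraries. All 3 KO libraries lay below the controls, and the log2 difference was -0.43 ± 0.17. It was level in the spleen of the Ets1 experiment (108 ± 15.6 and 106 ± 10.1) and measured 90.8 ± 5.30 in Grk2 controls and 112 ± 14.8 in Grk2-KO libraries. An annotated transcript on the opposite strand, AC127084.2, overlaps Prdx6, and reads from the 2 cannot be told apart if strand was not used in counting.

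Prdx3 (chromosome 1, 282238772 to 282251257, minus strand), the mitochondrial peroxiredoxin, measured 50.5 ± 12.7 in parenchyma controls and 64.8 ± 5.91 in Ets1-KO libraries, with overlap, although KO exceeded control in every pair. Its log2 difference was 0.38 ± 0.19 in parenchyma, 0.13 ± 0.26 in the spleen and 0.14 ± 0.13 in the Grk2 experiment. Prdx4 (chromosome X, 43497762 to 43512991, plus strand), the peroxiredoxin of the endoplasmic reticulum, was low, from 10.3 to 35.6 in the Ets1 tables, and its groups overlapped in all 3 comparisons. Prdx1 (chromosome 5, 135536412 to 135551990, plus strand), a cytosolic peroxiredoxin, lay at 4.53 to 12.1 in parenchyma, with a mean below the 10 normalised reads that were required for the fit. Its pairs in parenchyma ran from -0.97 to -0.12 on the log2 scale, and in the spleen of the Ets1 experiment from -0.54 to -0.01.

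Sod1 (chromosome 11, 30363279 to 30368862, plus strand), which turns superoxide into the peroxide that peroxiredoxins remove, hardly differed. It measured 391 ± 33.3 and 402 ± 17.3 in parenchyma, 465 ± 43.8 and 441 ± 51.7 in the spleen of the Ets1 experiment, and 471 ± 31.9 and 474 ± 13.8 in the Grk2 experiment, control first. The groups overlapped each time and the log2 differences lay between -0.08 and 0.04.

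Gsto1 (chromosome 1, 267607417 to 267617387, plus strand), a glutathione transferase of the omega class, was the member with the widest difference after Grk2 loss. It measured 14.1, 11.1 and 17.2 in controls and 39.3, 40.4 and 38.2 in Grk2-KO libraries, from 10 to 45 reads per library, a log2 difference of 1.43 ± 0.27. Every KO library was above every control. In the Ets1 experiment the KO libraries were also higher in every pair, at 9.50 ± 4.04 and 15.6 ± 5.74 in parenchyma with overlap, and at 7.62 ± 3.94 and 13.0 ± 1.32 in spleen without. These values rested on 3 to 23 reads per library, and the SE of the log2 difference was 0.38 in parenchyma and 0.44 in spleen. Gsto1 lies within the annotated span of Gsto2 on the same strand (267607415 to 267640455), and Gsto2 was listed at 0 in all 18 libraries, so reads that the counting could not assign to either gene would be missing here.

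**Figure D2:**
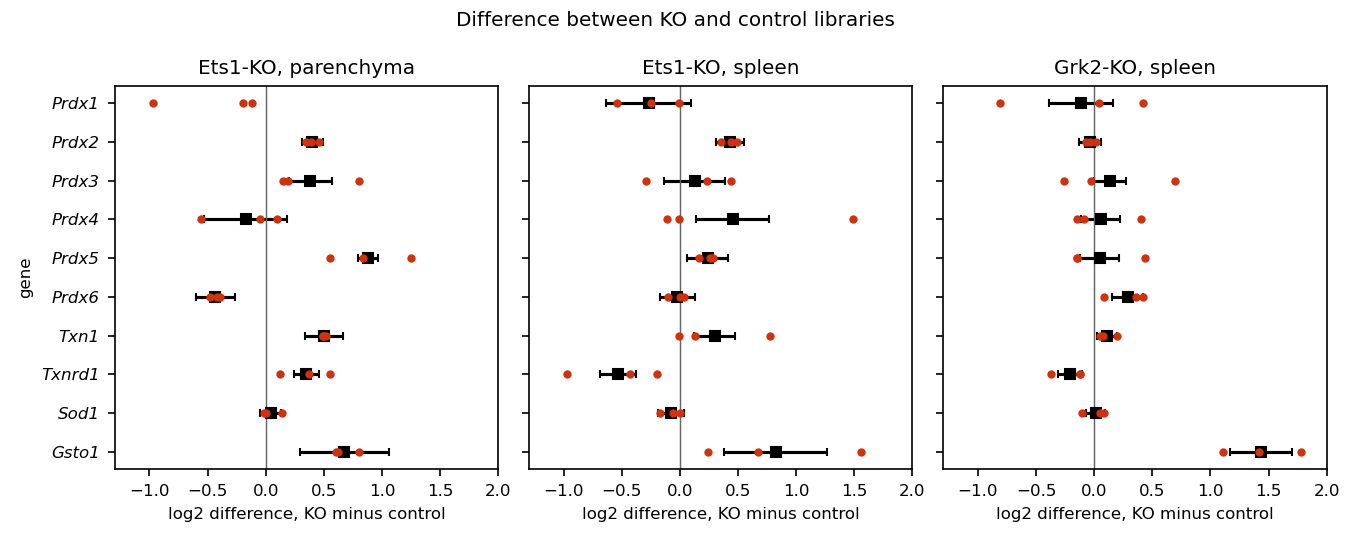
Log2 difference between KO and control libraries for each gene in the 3 comparisons. Red points are the ratios within each replicate number, squares the fitted difference and whiskers its SE from the fit, with variance pooled over genes. Prdx5 reaches 0.88 in parenchyma, Txnrd1 changes sign between parenchyma (0.35) and spleen (-0.53), and Gsto1 reaches 1.43 after Grk2 loss; Prdx1 in parenchyma has no square since it was below the minimum.

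Since the members were selected on these contrasts, the counts of members in this and the next paragraph are a description in all 3 comparisons. In a fit across all genes (limma on log2 of the normalised count plus 1, replicate number as block, Benjamini-Hochberg adjusted p below 0.05), 4 of the 9 members tested in parenchyma were called, Prdx2, Prdx5, Txn1 and Txnrd1, all higher in KO, where 5.23% of the 7002 genes tested were called. KO and control did not overlap for 5 of 9 members, and for 18.4% of all genes. The median log2 difference was 0.38 over the 9 members and -0.03 over all genes. Gsto1 reached the minimum mean of 10 only through its KO libraries (9.50 in controls, 15.6 in KO libraries). Prdx1 missed it only through its KO libraries (10.5 in controls, 7.91 in KO libraries). With no filter the median over all 10 members was 0.37. Leaving out a replicate number changed the calls: without replicate 1 they were Prdx2, Prdx5 and Txnrd1, without replicate 2 Prdx5, and without replicate 3 Prdx2 and Prdx5. With no replicate block they were Prdx2 and Prdx5.

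In the spleen of the Ets1 experiment limma called 0 of 10 members, where 2.22% of 6979 genes were called; 2 members had an unadjusted p below 0.05, edgeR called Prdx2 and Txnrd1, and DESeq2 called 0 of the 3 it did not filter out. Without replicate 3 limma called Txnrd1. The groups did not overlap for 3 of 10 members, and for 16.9% of all genes; 1 of the 3, Gsto1, reached the minimum mean of 10 only through its KO libraries (7.62 in controls, 13.0 in KO libraries). The median log2 difference was 0.18 over the members and 0.00 over all genes. In the Grk2 experiment Gsto1 was called, 1 of 10, where 1.56% of 6985 genes were called, and it was not called without replicate 2. The groups did not overlap for 2 of 10 members and for 12.2% of all genes, and the medians were 0.05 and 0.02.

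Markers of other cells were low but not level between the groups. In parenchyma the summed myeloid and microglial markers (10 of 12 detected, Adgre1 and P2ry12 at 0) reached 25.4 to 53.1 in controls and 42.5 to 67.7 in KO libraries, and the CD8 markers (1 of 2 detected, Cd8b at 0) 0 to 3.74 and 5.67 to 10.1. Glial and neuronal markers (7 of 8 detected) ran from 70.1 to 94.0 in parenchyma controls and 48.7 to 85.9 in KO libraries. Most of this sum was Mbp, at 66.8 to 82.8 in controls and 39.7 to 78.9 in KO libraries. Mbp was also read in every spleen library, at 21.9 to 41.2, so the sum is not a measure of glia alone. The part of these markers in the differences of the members was not tested. In a bulk library, fewer cells of a type and less RNA per cell cannot be told apart.

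The wider antioxidant genes were examined in 4 lists of 66 genes, of which 63 had a row and 33, 34 and 33 passed the minimum in the parenchyma, spleen Ets1 and Grk2 tables. In parenchyma 3 of the 33 genes fell and 0 rose in the same fit, where 5.23% of all genes were called. With no replicate block 0 of the 33 were called. The split depended on the scaling: 2 rose and 2 fell with upper quartile scaling, and 2 rose and 3 fell by edgeR, the rises being Fth1, a ferritin subunit (log2 differences of 0.31 and 0.31), and Mafg, a small MAF partner of NRF2 (0.49 and 0.49), both named here after their values were seen. Among thioredoxin and peroxiredoxin partners 2 of 11 fell, Txnip and Sesn3, and among NRF2 and its regulators and targets 1 of 11 fell, Keap1; 0 of 8 glutathione genes and 0 of 3 superoxide and catalase genes were called. The median log2 difference of the 33 genes was -0.02.

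Txnip, the inhibitor of thioredoxin, measured 233, 371 and 261 in parenchyma controls and 187, 234 and 231 in the libraries labelled Ets1-KO. It was lower in every pair, although the groups overlapped by KO library 2, and it fell by 0.39 on the log2 scale (limma adjusted p = 0.00887). Sesn3, a sestrin that is linked to nutrient and peroxide responses, measured 226 ± 25.1 in controls and 170 ± 25.1 in KO libraries, without overlap, and fell by 0.42 (limma adjusted p = 0.0087). Keap1, the adaptor that holds NRF2 down, measured 161, 133 and 143 in controls and 110, 93.0 and 121 in KO libraries, all of them below the controls, and fell by 0.43 (limma adjusted p = 0.0324). Nfe2l2 itself measured 76.1 ± 12.9 and 72.8 ± 11.3, a log2 difference of -0.06. Without the block the limma adjusted p was 0.120 for Txnip, 0.0683 for Sesn3 and 0.109 for Keap1. Each call was also lost when a replicate number, a control and a KO library together, was left out: Txnip was not called without replicate 2 (log2 difference -0.24), Sesn3 not without replicate 1 (-0.24) or replicate 3, and Keap1 not without replicate 1 or replicate 2.

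In the spleen of the Ets1 experiment 1 of 34 genes rose and 0 fell, a share near the 2.22% called among all genes and so no result about the lists. Gpx1, the glutathione peroxidase of the cytosol, measured 451, 667 and 542 in controls and 791, 788 and 707 in KO libraries, all above the controls, and rose by 0.48 on the log2 scale (limma adjusted p = 0.0314). The call was lost without replicate 1, where the difference was 0.31, and with no replicate block (limma adjusted p = 0.0933). Txnip (0.32, limma adjusted p = 0.361), Keap1 (0.20, limma adjusted p = 0.521) and Nfe2l2 (-0.10) were not called. None of the 12 thioredoxin partners, 12 NRF2 genes or 3 superoxide genes was called.

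After Grk2 loss limma called 0 of the 33 genes, edgeR 0 of 33 and DESeq2 0 of the 16 it did not filter out, and 5 had an unadjusted limma p below 0.05. The median log2 difference was 0.07, and Txnip (594 ± 41.2 in controls, 628 ± 103 in KO libraries), Keap1 (115 ± 5.12 and 122 ± 19.2) and Nfe2l2 (92.3 ± 3.36 and 88.1 ± 11.3) overlapped between the groups.

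The Ets1-KO effect was then compared between the tissues as the difference of the log2 ratios of the numbered pairs. Of 6520 genes tested, 2.10% were called, and among the genes of the 4 lists they were Txnip and Sqstm1. For Txnip, which was lower in all 3 pairs in parenchyma and higher in all 3 in spleen, the effect in parenchyma was below that in spleen by a log2 difference of -0.70 ± 0.19 (limma adjusted p = 0.0378). For Sqstm1, an autophagy receptor that binds Keap1, it was -0.48 ± 0.14 (limma adjusted p = 0.0497): the level went from 778 ± 65.0 to 657 ± 23.1 in parenchyma and from 352 ± 13.1 to 417 ± 8.58 in spleen. Keap1 had a difference of -0.62 ± 0.18 in the same direction and was not called (limma adjusted p = 0.0606), except with a minimum of 50 (limma adjusted p = 0.0442). Leaving out any replicate number ended the calls of Txnip and Sqstm1, as did the fit with no replicate block. The members Txnrd1 and Prdx5 differed the other way, by 0.88 ± 0.19 and 0.64 ± 0.17, given here as a description; Txnrd1 dropped to 0.56 without replicate 2 and Prdx5 to 0.42 without replicate 3. Tissue, cell isolation (density gradient against CD4 selection), depth and any difference between transfers cannot be told apart in this comparison.

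**Figure D3:**
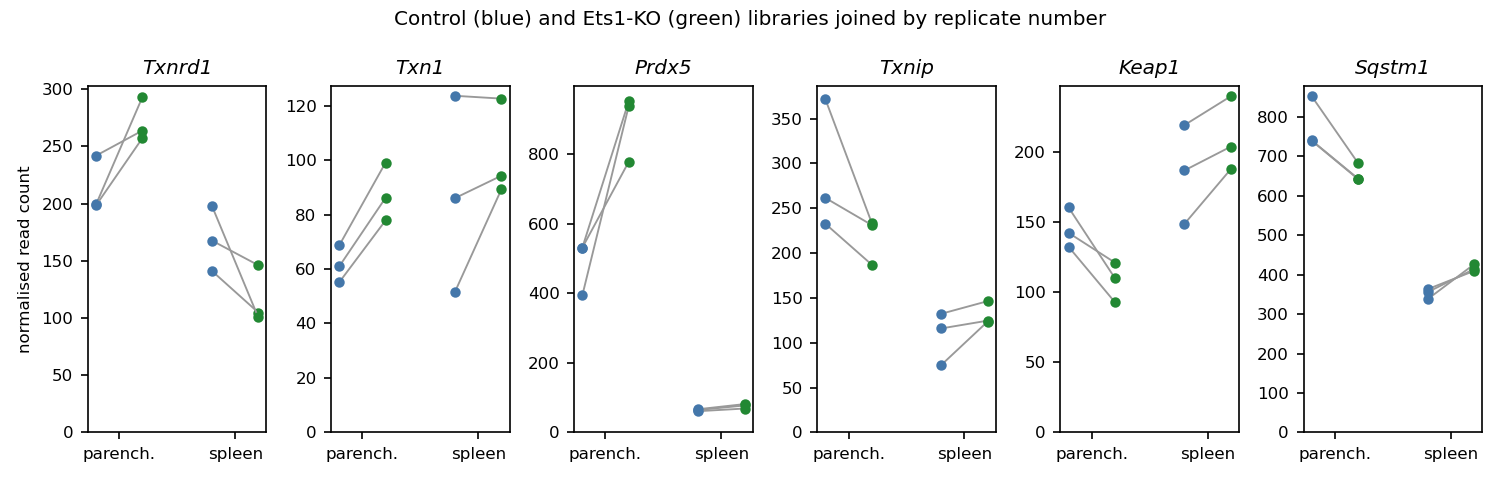
Normalised read counts of Txnrd1, Txn1, Prdx5, Txnip, Keap1 and Sqstm1 in control (blue) and Ets1-KO (green) libraries of parenchyma and spleen, with lines joining libraries of the same replicate number. Txnrd1 lines go up in parenchyma and down in spleen, whereas Txnip, Keap1 and Sqstm1 lines go down in parenchyma and up in spleen.

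The control libraries give the level of each gene in each tissue, as RPM, the reads of a gene scaled to the same library total, so that tables can be set side by side. The tables were normalised separately, so these levels are compared without a test. How many of all genes separate between these control sets was not counted, so the separations describe the members only. Prdx5 differed most between the tissues, at 342 ± 54.7 RPM (SD, n = 3), against 47.9 ± 3.86 and 46.9 ± 4.61 in the spleen controls of the Ets1 and Grk2 experiments. This is a ratio of 7.13 and of 7.29, and the 2 spleen sets overlapped. Prdx2 was also higher in every parenchyma control than in all 6 spleen controls, at 265 ± 10.9 against 162 ± 25.1 and 185 ± 1.32.

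Sod1, Prdx6 and Prdx1 were lower in every parenchyma control than in every spleen control. Sod1 measured 275 ± 19.3 RPM in parenchyma, 346 ± 27.6 in the spleen of the Ets1 experiment and 362 ± 31.7 in that of the Grk2 experiment. Prdx6 measured 60.1 ± 2.53, 80.5 ± 8.0 and 69.8 ± 5.42 in the same order, and Prdx1 7.37 ± 1.17, 11.6 ± 2.91 and 18.4 ± 3.01. For the other 5 members the parenchyma range overlapped that of the spleen controls. Summed myeloid and microglial markers were 25.4 to 53.1 normalised reads in parenchyma controls, 7.53 to 7.83 in the spleen controls of the Ets1 experiment and 1.01 to 2.17 in those of the Grk2 experiment. Their part in the tissue levels was not tested.

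The 2 sets of spleen controls, both TMBP cells with a non-targeting guide, did not overlap for 5 members. The share of all genes without overlap was not counted, so this count is not a trait particular to the members. Txn1 measured 65.5 ± 28.2 RPM in the Ets1 experiment and 266 ± 32.5 in the Grk2 experiment, a ratio of 4.06. Prdx3 (22.9 ± 9.19 and 77.0 ± 14.8), Prdx4 (17.0 ± 6.88 and 48.9 ± 16.4), Prdx1 and Gsto1 (5.64 ± 2.80 and 10.8 ± 2.19) were also higher in the Grk2 experiment. The mean in parenchyma lay above that of the first spleen set and below that of the second for Prdx3 (ratios of 1.56 and 0.463) and Gsto1 (1.18 and 0.613), and below both for Txn1 (0.661 and 0.163) and Prdx4 (0.644 and 0.224). Erythroid markers, mainly haemoglobin genes, summed to 32.8 to 65.6 normalised reads in the spleen controls of the Ets1 experiment and to 1.11 to 2.17 in those of the Grk2 experiment; their part in these levels was not tested.

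**Figure D4:**
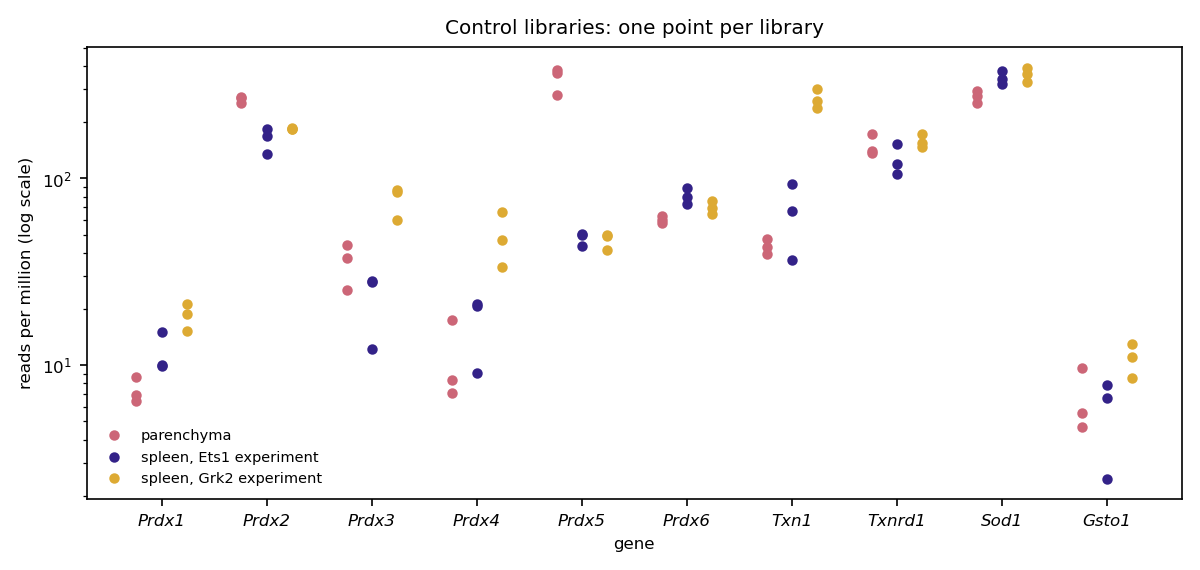
RPM (log scale) of each gene in the 9 control libraries, with 1 point per library, coloured by tissue and experiment. Prdx5 lies about 7.13 times higher in parenchyma than in the spleen controls to Ets1-KO. Txn1, Prdx3 and Prdx4 lie higher in the spleen of the Grk2 experiment than in that of the Ets1 experiment.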

How the data were processed

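Bulk 3′ mRNA sequencing of sorted rat T cells was analysed from 3 deposited tables, 6 libraries each. The authors aligned reads with STAR 2.7.2b to Rnor_6.0, counted them per gene with HTSeq 1.0.0 and divided them by DESeq2 2.11.40.7 size factors (submitters' processing notes and the study's methods); the deposited values are thus a signal in normalised reads. Of the values above 0, 100% were whole multiples of 1 step per library (tolerance 0.01), which gave back the reads; edgeR on these reads called 354, 238 and 90 genes in the parenchyma, spleen Ets1 and Grk2 tables. Replicate numbers come from the labels. The members and gene lists were chosen with earlier results of these data known.

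The 6 libraries of a table had to average 10 or more normalised reads for a gene to enter the fit, made on log2(value + 1), a scale that understates the change of low genes, using limma 3.58.1 in R 4.3.3 (variance trend, replicate number as block, after the study's correction per animal where applicable, although the labels do not tie numbers to animals, two-sided, Benjamini-Hochberg adjustment over all genes, 0.05). Named genes are all members, pathway genes called (at most 8 per comparison), and Nfe2l2, Keap1 and Txnip always. Reads were 898092 to 2248258 per library, and the fit was tested on simulated data. Alternatives changed the block, trend, pseudocount, filter, scaling, libraries and test (edgeR 4.0.16, DESeq2 1.42.0). The authors' comparison files (fold changes, p-values, enriched terms) were not used, nor were 8 columns of a human table that match no sample here.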

Additional observations from a re-analysis of the deposited data

Results flagged for a closer look

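Txnrd1 is listed because its KO difference had opposite signs in the tissues, higher in all 3 numbered pairs in parenchyma and lower in all 3 in spleen. The difference between the tissues was 0.88 on the log2 scale (0.56 without replicate 2). It is a description: Txnrd1 was selected on these contrasts, so its row in the fit across all genes is not used as a test.

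Txnip and Sqstm1 are listed because a test of the difference between the tissues called them, at -0.70 and -0.48 on the log2 scale (limma adjusted p = 0.0378 and 0.0497, 6520 genes tested). Both were lower in KO in 3 of 3 pairs in parenchyma and higher in 3 of 3 pairs in spleen. Groups of 3 libraries were too small for a formal search for single outlying libraries. Ets1-KO spleen library 3, which stood apart from the other KO libraries (chi-square per degree of freedom of 8.95 and 9.23, against 2.83), enters the spleen values of Txnrd1, Txnip and Sqstm1.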

How the results depend on the processing

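Of 369 member differences under the alternatives, 356 moved by less than their SE, whereas the counts of calls changed more. Changing the block, the trend or the filter cannot move a limma difference in this balanced design. Part of the 356 was therefore fixed in advance and does not show stability. The members called were, in parenchyma (4 in the reported fit), 2 with no replicate block, 0 with no variance trend, 2 with no filter and 2 by DESeq2, and 1 to 3 when a replicate number was left out. In the spleen of the Ets1 experiment (0) they were 2 with no filter, 1 with a minimum of 50, 2 with upper quartile scaling, 2 by edgeR, and 0 to 1 without a replicate. In the Grk2 experiment (1) they were 0 with no variance trend, with a minimum of 50, which Gsto1 does not reach, and by DESeq2, and 0 to 1 without a replicate.

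The genes of the 4 lists called in parenchyma (3) were 0 with no replicate block, no variance trend, no filter or DESeq2, 5 with a minimum of 50 and 5 by edgeR, 1 with quantile normalization, and 1 to 3 without a replicate. In the spleen of the Ets1 experiment (1) they were 0 with no replicate block or no variance trend, and 0 to 1 without a replicate; after Grk2 loss they were 0 throughout. For the difference between the tissues (2) they were 3 with a minimum of 50, 0 with no replicate block or no variance trend, 1 with a pseudocount of 0.1, no filter, upper quartile scaling or quantile normalization, and 0 without any of the replicates. Over the alternatives the adjusted p of limma, edgeR or DESeq2 ran from 0.00359 to 0.475 for Txnip, 0.00522 to 0.437 for Sesn3 and 0.0244 to 0.556 for Keap1 in parenchyma, from 0.000901 to 0.740 for Gpx1 in spleen, and from 0.0307 to 0.337 for Txnip and 0.0333 to 0.346 for Sqstm1 between the tissues. After Grk2 loss the log2 difference of Keap1 ran from -0.069 (without replicate 3) to 0.18 and that of Txnip from -0.096 (without replicate 1) to 0.17 when a replicate was left out; neither gene was called in any fit.

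Over all genes, 366 were called in parenchyma, against 200 with no replicate block, 3 with no variance trend, 212 with no filter, 82 by DESeq2 and 165 to 278 without a replicate. In the spleen of the Ets1 experiment 155 were called, against 71, 0, 242 and 56 in the same order, 238 by edgeR, and 3 to 241 without a replicate. After Grk2 loss 109 were called, against 19 with no replicate block, 0 with no variance trend, 60 with a minimum of 50, 12 by DESeq2 and 9 to 48 without a replicate. The causes were not tested. Libraries of the same number deviated together only in part (r from -0.003 to 0.159 in parenchyma, 0.077 to 0.175 and 0.006 to 0.145 in the spleen experiments), so the labels give shared numbers and not shown pairs. The low reads of Prdx1, Prdx4 and Gsto1 limit their precision.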
